A study of Sorghum bicolor with 24 samples.

Results

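Roots of sorghum (Sorghum bicolor) labelled phosphorus deficiency for 7 days were compared with roots labelled mock at the same day, in all genes measured by RNA sequencing. The comparison used 6 of the 24 libraries of the study, 3 in each group, chosen by their deposited labels. The remaining libraries are the same treatment and mock at day 4, which entered the fit as 2 further groups, and a separate experiment with the synthetic strigolactone GR245DS, which was not used. All the groups used are root tissue, and the labels give no cultivar, genotype, plant age, medium or phosphate concentration for any of them. The labels also do not say whether the replicates of a group were separate plants, so a p-value here covers the variation among these libraries, which may be technical.

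Plants short of phosphate switch on a set of genes under PHR-type MYB factors, which are held back by SPX domain proteins while phosphate, sensed as inositol pyrophosphates, is plentiful. The set raises phosphate uptake by PHT1 transporters, frees phosphate with secreted purple acid phosphatases and ribonucleases, replaces membrane phospholipids with galactolipids and sulfolipids, and runs glycolysis on pyrophosphate in place of ATP. In grasses, strigolactones made from carotenoids and exuded by the root are part of the same response.

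The direction of these genes went against the labels. Across 4 lists, of membrane lipid remodelling, purple acid phosphatases, phosphate transporters and SPX proteins, the mean log2(CPM + 1) of the 103 tested members was at most 3.6 in the libraries labelled phosphorus deficiency and at least 5.57 in those labelled mock (CPM, the counts of a gene scaled to the library total with its TMM factor). The 2 groups did not overlap in this measure. An exchange of labels cannot be told apart from a response of this direction here, so every direction below is that of the deposited labels. In these bulk samples, fewer cells of a type and less RNA per cell also cannot be told apart.

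The libraries held 33354679 to 37056992 counts in the group labelled phosphorus deficiency and 34446304 to 45292506 in the group labelled mock. Log2(CPM + 1) correlated at 0.988 to 0.993 within the first group, 0.978 to 0.991 within the second, and 0.914 to 0.933 between the groups, across genes that are not independent. Mock replicate 1 stood apart from the other mock libraries, with a chi-square per gene of 71.7 and 77.7 against them, where those differed from each other by 27.8. Phosphorus deficiency replicate 3 also stood apart within its group. It differed from replicates 1 and 2 by 35.9 and 39.5, where those differed from each other by 11.6. Root identity was checked on cortical cell-delineating protein (Sobic.005G046700), a marker of root cortex, which was among the highest genes per length in both groups at 2644 and 5471 FPKM, and on photosynthesis genes, whose summed level was at most 194 CPM in any library.

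Of 25137 genes tested with the quasi-likelihood test of edgeR, 8958 (35.6%) passed a Benjamini-Hochberg adjusted p of 0.05. In the libraries labelled phosphorus deficiency, 4386 of them (17.4% of those tested) had the higher level and 4572 (18.2%) the lower. These shares are the background against which each list count below is to be read. At a fitted change of at least 2-fold, 1724 (6.86%) were higher and 2768 (11%) lower. The lower side held the larger changes, with 340 genes at 16-fold or more against 167 on the higher side, and 124 at 100-fold or more against 49. Without mock replicate 1, the counts were 5008 higher and 5144 lower. Among all tested genes, the 3 libraries of one group lay wholly above or below those of the other for 11574 (46%). Over all genes the median change was -0.02 on the log2 scale. Genes called higher took 38.3 to 39.5% of all counts in the libraries labelled phosphorus deficiency and 19.7 to 22.3% in those labelled mock, and genes called lower took 14 to 15% and 32.3 to 34.4%.

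SPX domain proteins, the sensors that hold back PHR factors, were lower almost throughout. Of 9 members, all tested, 7 were lower, 1 higher and 1 not past the test, with a median log2 fold change of -7.13. Their summed level was 99.6 to 110 CPM in the libraries labelled phosphorus deficiency and 2818 to 3561 CPM in those labelled mock. SPX5 (Sobic.001G342400) stood at 1.26, 1.2 and 1.01 CPM in the libraries labelled phosphorus deficiency and at 765, 676 and 676 CPM in those labelled mock. It was 609-fold lower, with no overlap (log2 fold change -9.25, SE 0.22, edgeR adjusted p = 1.69e-11). SPX6 (Sobic.003G183600) was 140-fold lower and an SPX1 gene (Sobic.010G185200) 45.6-fold lower. SPX4 (Sobic.001G028500), a type that in rice and Arabidopsis responds little to phosphate in its transcript, fell by 0.85 on the log2 scale, from 82.7 ± 4.05 to 45.8 ± 1.13 CPM (SD, n = 3).

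The exception among SPX proteins lay in the membrane-bound type, which moves phosphate into the vacuole. One such gene (Sobic.004G282900) was 304-fold lower at 1.31 ± 0.319 CPM against 399 ± 135 (SD, n = 3). Another of the same type (Sobic.006G185500) was 4.31-fold higher, at 8.62 ± 0.851 against 2 ± 0.779 CPM. The 2 genes thus differed in direction within one type.

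Phosphate transporters were mostly lower, by a wide range of sizes. Of 25 members 22 were tested, with 13 lower, 2 higher and 7 not past the test, and a median of -1.06. PHT1-6 (Sobic.007G164400), a high-affinity uptake carrier in rice, stood at 1.85, 1.01 and 1.7 CPM in the libraries labelled phosphorus deficiency and at 168, 352 and 242 CPM in those labelled mock. All 3 libraries labelled phosphorus deficiency were below all 3 labelled mock, a 167-fold difference (edgeR adjusted p = 6.3e-09). PHT1-8 (Sobic.001G234800) stood at 96.2, 83.5 and 62.3 CPM against 899, 695 and 736 CPM, so that it kept a clear level in both groups while being 9.63-fold lower. PHT1-2 (Sobic.001G502000) was 10.6-fold lower, at 162 ± 51.8 against 1713 ± 729 CPM (SD, n = 3). The near-identical coding sequences of this family may share reads, so the split between members is uncertain.

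PHT1-11 (Sobic.003G243400), the carrier that in rice serves uptake from mycorrhizal fungi, was close to absent in the libraries labelled phosphorus deficiency, at 0.0616, 0 and 0 CPM against 142, 62.9 and 101 CPM. The ratio was 4956, with a 95% counting interval of 1431 to 42699 because few counts remained (edgeR log2 fold change -12.12, adjusted p = 5.64e-08). The one library with counts was replicate 1, without which the fitted log2 fold change was -14.90 against a group at 0. PHO1-3 (Sobic.010G138800), of the family that exports phosphate into the xylem, was 40.9-fold lower. PHO1-1 (Sobic.003G101000) was 1.6-fold higher and PHT1-12 (Sobic.001G502100) 5.27-fold higher at a low level of 2.55 CPM. The count of 2 higher members fell to 1 without phosphorus deficiency replicate 1 or mock replicate 3.

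**Figure D1:**
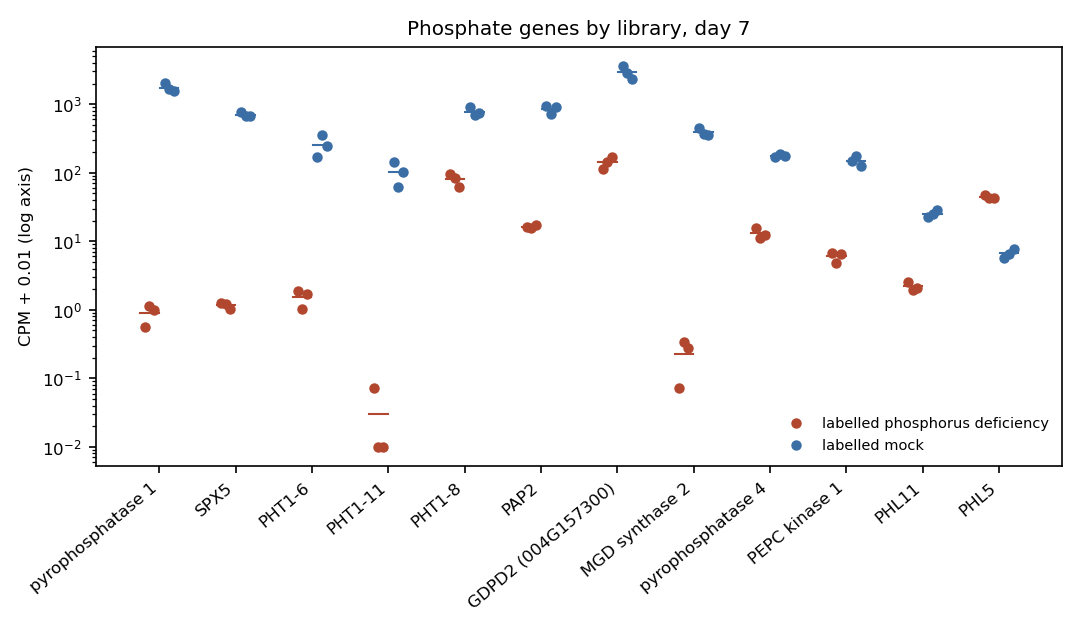
Levels of 12 phosphate genes in each day 7 library, as CPM plus 0.01 on a log axis, with red points for libraries labelled phosphorus deficiency, blue points for mock and a short line at each mean. In 11 genes every red point lies below every blue point, and in PHL5 the order is the reverse, at 44.2 against 6.63 CPM.

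The purple acid phosphatases cleave phosphate off organic molecules in soil and cell wall. Of 32 members 26 were tested, with 14 lower, 5 higher and 7 not past the test, and a median log2 fold change of -1.17. PAP2 (Sobic.008G113000) stood at 16.3, 15.5 and 17.1 CPM in the libraries labelled phosphorus deficiency and at 942, 718 and 924 CPM in those labelled mock. The groups were far apart, a 52.8-fold difference (edgeR adjusted p = 6.84e-11). PAP3 (Sobic.001G442300) was 92.4-fold lower, from 1395 ± 86.3 to 15.1 ± 1.14 CPM (SD, n = 3). All 14 lower members changed by at least 2-fold, but only 1 of the 5 higher members did. That member, a gene described as inactive purple acid phosphatase 1 (Sobic.008G140300), was 6.04-fold higher at 34.9 ± 1.7 against 5.78 ± 0.616 CPM. Its namesake Sobic.008G140100 was 92.4-fold lower. The count of higher members fell to 3 without phosphorus deficiency replicate 3 or mock replicate 2.

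Among the other phosphatases, nucleases and apyrases, 19 of 38 tested members were lower, 6 higher and 13 not past the test. Inorganic pyrophosphatase 1 (Sobic.003G279300) stood at 0.555, 1.12 and 0.983 CPM in the libraries labelled phosphorus deficiency and at 2007, 1679 and 1563 CPM in those labelled mock. In Arabidopsis a gene of this type is a marker of phosphate shortage, and here the difference was 1978-fold (log2 fold change -10.93, SE 0.60, edgeR adjusted p = 2.8e-08). A haloacid dehalogenase-like hydrolase (Sobic.010G007300) was 25.8-fold lower and endonuclease 2 (Sobic.003G087300), which degrades nucleic acids, 43.5-fold lower. On the higher side, an acid phosphatase 1 gene (Sobic.001G382900) was 12.5-fold higher, at 6.25 against 0.499 CPM.

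Membrane lipid remodelling was lower in 26 of 46 tested members, higher in 3 and not past the test in 17, with a median of -0.71. The monogalactosyldiacylglycerol synthase 2 gene (Sobic.007G211900), which makes galactolipid outside the plastid inner membrane, stood at 0.0616, 0.327 and 0.268 CPM against 450, 365 and 353 CPM. The difference was 1780-fold, with the libraries labelled phosphorus deficiency near the limit of detection (edgeR adjusted p = 4.09e-10). A glycerophosphodiester phosphodiesterase GDPD2 (Sobic.004G157300), which breaks down deacylated phospholipid, was 20.6-fold lower, at 115, 142 and 170 CPM against 3603, 2877 and 2322 CPM. On the authors' per-length scale this gene stood at 88.9 FPKM against 1753 FPKM, among the highest of all genes in the group labelled mock. The other GDPD2 gene (Sobic.006G054800) stood at 0, 0 and 0.149 CPM against 283, 237 and 230 CPM, a ratio of 5039. Because 1 library decided that low level, its fitted log2 fold change of -12.23 became -16.18 without phosphorus deficiency replicate 3.

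Further steps of lipid exchange moved the same way. The levels of a carrier of glycerol-3-phosphate (Sobic.006G173000) were 95.7-fold lower, those of UTP--glucose-1-phosphate uridylyltransferase 3 (Sobic.009G168600), which makes the precursor of sulfolipid, 35-fold lower, and those of choline/ethanolaminephosphotransferase 1 (Sobic.010G077100) 22.2-fold lower. All 3 of the higher members were GDPD-like proteins. Of these, GDPDL7 (Sobic.004G070600), related to a cell wall protein family that in Arabidopsis includes SHV3, was 30.1-fold higher at 10.5 ± 1.88 against 0.348 ± 0.128 CPM (SD, n = 3).

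Regulators of the phosphate response went both ways. Of 19 tested, 10 were lower, 6 higher and 3 not past the test. PHL5 (Sobic.006G256200), a PHR-like MYB factor, stood at 47.9, 42.5 and 42.1 CPM in the libraries labelled phosphorus deficiency and at 5.77, 6.5 and 7.63 CPM in those labelled mock. It was 6.66-fold higher with no overlap (edgeR adjusted p = 1.67e-08), whereas its relative PHL11 (Sobic.006G202300) was 11.5-fold lower. SEC12-like protein 1 (Sobic.001G054000), similar to the PHF1 protein that lets PHT1 carriers leave the endoplasmic reticulum, was 238-fold lower, at 0.378 ± 0.186 against 90 ± 9.17 CPM. VIP2 kinases, which make the inositol pyrophosphates read by SPX proteins, split into one 3.61-fold lower (Sobic.003G315166) and one 2.68-fold higher (Sobic.001G132600).

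The PHR genes themselves differed little. PHR2 (Sobic.002G121600) stood at 88.5 against 64.6 CPM with an edgeR adjusted p of 0.021, PHR1 (Sobic.001G384300) at 75 against 60.8 CPM with 0.0473, and a PHO2-type ubiquitin-conjugating enzyme E2 24 (Sobic.009G228100) at 493 against 350 CPM with 0.0309. Each of these calls was lost without at least 3 of the libraries taken out in turn. The list count of 6 higher fell to 3 without phosphorus deficiency replicate 1 and to 2 without mock replicate 3.

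Phosphate-sparing glycolysis and carboxylases were lower in 24 of 33 tested members, higher in 2 and not past the test in 7. Soluble inorganic pyrophosphatase 4 (Sobic.009G016000) was 13.7-fold lower, at 15.5, 11.2 and 12.3 CPM against 169, 186 and 178 CPM. A pair of phosphoenolpyruvate carboxylase kinase 1 genes, which activate the carboxylase by phosphorylation, were 24.6-fold (Sobic.006G148300) and 18-fold lower (Sobic.004G219900). Phosphoenolpyruvate carboxylase itself (Sobic.003G301800) was 7.95-fold lower, at 38.4 ± 7.84 against 306 ± 52.5 CPM (SD, n = 3). The 2 higher members work in the reverse direction, toward phosphoenolpyruvate. Phosphoenolpyruvate carboxykinase (Sobic.001G432800) was 3.23-fold higher at 747 ± 187 against 231 ± 109 CPM, and pyruvate, phosphate dikinase 2 (Sobic.001G326900) 5.66-fold higher.

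Organic acid transporters, which export malate and citrate that free phosphate from soil minerals, did not lean one way. Of 58 tested, 16 were higher, 14 lower and 28 not past the test, with a median of 0.14. DETOXIFICATION 30 (Sobic.007G176000) was 7.9-fold lower. A tonoplast dicarboxylate transporter (Sobic.002G245300), which moves malate into the vacuole, stood at 263, 241 and 220 CPM against 45.2, 5.47 and 4.93 CPM. Mock replicate 1 was far above the other mock libraries for this gene, and the log2 fold change was 3.70 with it and 5.54 without it.

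**Figure D2:**
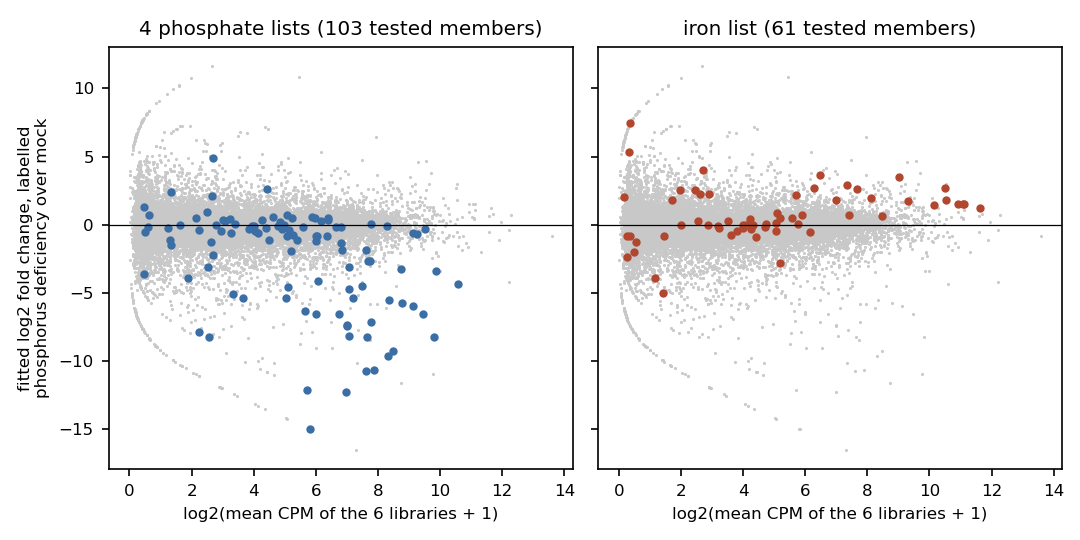
Fitted log2 fold change (labelled phosphorus deficiency over mock) against log2 of the mean CPM of the 6 libraries plus 1, with all tested genes in grey, the 103 members of 4 phosphate lists in blue (left) and the 61 members of the iron list in red (right). The phosphate members reach down to -15.01, with 60 lower and 11 higher, and 30 of the iron members are higher.

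Strigolactone synthesis was lower in 7 of 10 tested members, higher in 2 and not past the test in 1, with a summed level of 26.5 to 33.3 CPM in the libraries labelled phosphorus deficiency and 254 to 444 CPM in those labelled mock. A MAX1-type cytochrome P450 (Sobic.003G269500), which oxidises carlactone, stood at 1.36, 1.72 and 1.88 CPM against 61.5, 83.7 and 124 CPM. It was 54.4-fold lower, although the mock libraries varied among themselves (edgeR adjusted p = 6.12e-08). Another MAX1-type gene (Sobic.004G095500) was 19.4-fold lower. The count of higher members fell to 1 without phosphorus deficiency replicate 3 or mock replicate 2.

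Perception and precursor genes were split. Of 14 strigolactone and karrikin perception genes tested, 6 were lower, 2 higher and 6 not past the test, and 3 were lower when only the 6 day 7 libraries were fitted. Of the genes described as the receptor D14, the most abundant one (Sobic.001G465100) was 3.23-fold higher, at 437 ± 48.5 against 135 ± 43.3 CPM (SD, n = 3). The F-box protein MAX2 (Sobic.010G043000), its partner in signalling, was 2.75-fold higher. Another D14 gene (Sobic.009G254700) was barely detected in the libraries labelled phosphorus deficiency, with a ratio of 239 and a 95% counting interval of 66.5 to 1997. Without phosphorus deficiency replicate 3, the only library with counts, its fitted log2 fold change went from -7.70 to -10.46. Sobic.009G254600, also described as D14, was lower at 0 against 0.282 CPM. Sobic.003G206900, of the same description, did not pass the test at 2.02 against 1.21 CPM. In the MEP and carotenoid pathway 15 of 30 tested genes were lower, 4 higher and 11 not past the test. Phytoene synthase, the first committed step to carotenoids, moved in opposite directions by gene, with phytoene synthase 3 (Sobic.002G292600) 4.19-fold higher and phytoene synthase 2 (Sobic.008G180800) 3.77-fold lower. Transporters of the ABCG family were lower in 11, higher in 5 and not past the test in 26 of 42 tested, and those of the ABCB family in 7, 5 and 9 of 21. The ABCG shares were 26.2% lower and 11.9% higher, against 18.2% and 17.4% of all tested genes. The 5 higher ABCG genes became 3 without phosphorus deficiency replicate 2, mock replicate 2 or mock replicate 3.

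Iron uptake genes moved the other way. Grasses take up iron by releasing mugineic acids, made from methionine through nicotianamine, and by importing the iron complex through yellow stripe carriers, with IRT-type carriers for ferrous iron beside them. Of 79 members 61 were tested, with 30 higher, 8 lower and 23 not past the test, a median of 0.50, and a summed level of 23245 to 28714 CPM in the libraries labelled phosphorus deficiency against 7567 to 10501 CPM. The zinc finger protein BRUTUS (Sobic.009G222200), an iron-binding ubiquitin ligase that in Arabidopsis restrains the iron response, stood at 311, 249 and 289 CPM against 38.2, 35.9 and 37.7 CPM. The groups were tight and separate, 7.6-fold apart (edgeR adjusted p = 5.76e-09).

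Several steps of iron acquisition held higher members. Ferrous iron carriers were higher by 12.6-fold for Fe(2+) transport protein 1 (Sobic.001G142800) and by 11.3-fold for a Fe(2+) transport protein 2 (Sobic.001G142900), the latter at 1066, 866 and 932 CPM against 102, 61.6 and 90.9 CPM. Nicotianamine aminotransferase 1 (Sobic.002G041200), on the path to mugineic acids, was 6.63-fold higher at 2517 ± 250 against 380 ± 86 CPM (SD, n = 3). Nicotianamine synthase 2 (Sobic.001G395900) was 2.35-fold higher, a yellow stripe transporter (Sobic.004G299600) 4.52-fold higher and the metal transporter Nramp2 (Sobic.001G462500) 6.08-fold higher. The regulators IRON-RELATED TRANSCRIPTION FACTOR 2 (Sobic.003G428800), an activator in rice, and 3 (Sobic.001G355600), a repressor of the response in rice, were 2.8-fold and 3.59-fold higher. Transcription factor BHLH156 (Sobic.006G047200), which in rice acts with the former, was 4.34-fold higher. On the lower side, the storage protein ferritin-1 (Sobic.005G004500) was 1.87-fold lower, and deoxymugineic acid synthase 1-D (Sobic.006G096400) 7.17-fold lower.

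Zinc and copper transporters had 14 higher, 3 lower and 17 not past the test of 34 tested, with a median of 0.30. Zinc transporter 9 (Sobic.007G064900) stood at 155, 132 and 132 CPM against 3.23, 3.17 and 3.85 CPM. It was among the 10 largest higher changes of genes with a description, no overlap and at least 5 CPM. The gap of 40.8-fold far exceeded the spread in either group (log2 fold change 5.35, SE 0.28, edgeR adjusted p = 1.7e-08). Zinc transporter 1 (Sobic.003G443700) was 8.39-fold higher and the copper-transporting ATPase HMA4 (Sobic.004G079900), which in rice loads copper into root vacuoles, 5.03-fold higher, whereas zinc transporter 2 (Sobic.001G339600) was 4.76-fold lower.

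**Figure D3:**
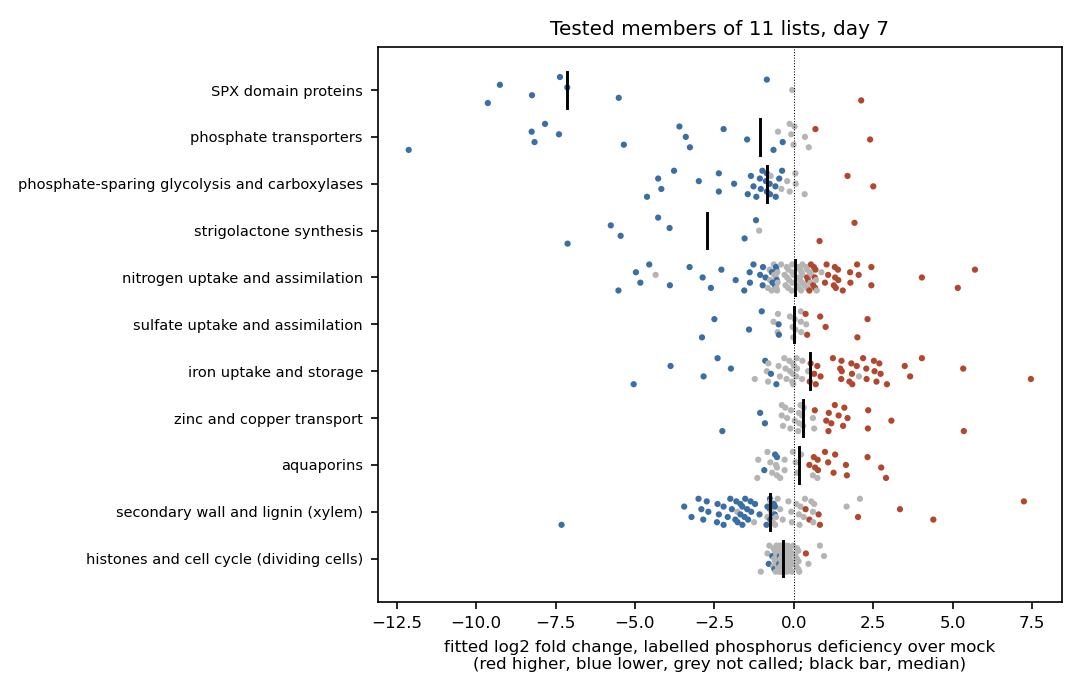
Fitted log2 fold change (labelled phosphorus deficiency over mock) of every tested member of 11 lists, 1 point a gene, red where higher, blue where lower and grey where not past the test, with a black bar at the median. The median lies at -7.13 for SPX proteins and at 0.50 for iron, and the nitrogen and sulfate lists spread to both sides of medians of 0.04 and 0.01.

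Nitrogen genes went both ways. Of 98 tested, 28 were higher, 24 lower and 46 not past the test, with a median of 0.04. A NRT1/PTR FAMILY 6.3 gene (Sobic.001G541900), of the type that both carries and senses nitrate, stood at 0.801, 0.98 and 0.744 CPM against 40.7, 37.4 and 38.9 CPM, a 46.3-fold lower level (edgeR adjusted p = 3.57e-09). Its namesake Sobic.001G302800 was 4.12-fold higher, at 316 ± 62.7 against 76.8 ± 27.8 CPM (SD, n = 3). High-affinity nitrate carriers split in the same manner. Transporter 2.1 (Sobic.004G009400) stood at 50.5, 27.5 and 29.7 CPM against 1.64, 0.446 and 0.924 CPM, 35.8-fold higher, and its log2 fold change of 5.16 became 5.77 without mock replicate 1. Transporter 2.3 (Sobic.003G270800) was 28.7-fold lower. Ammonium transporter 1 member 2 (Sobic.004G217800) was 9.73-fold lower. Transcription factor NIGT1 (Sobic.008G036900), which in rice and Arabidopsis represses nitrate uptake and connects nitrate with phosphate signalling, was 31.8-fold lower, at 7.18, 5.64 and 6.58 CPM against 231, 200 and 187 CPM.

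Sulfate genes were even, with 6 higher, 6 lower and 12 not past the test of 24 tested. Here too a pair of namesakes diverged, with one sulfate transporter 1.2 gene (Sobic.007G123500) 5.67-fold lower and the other (Sobic.001G470600) 4.01-fold higher. Sugar transport and sucrose cleavage had 24 higher, 25 lower and 40 not past the test of 89. Probable polyol transporter 6 (Sobic.009G157800) was 64.5-fold higher at 13.5 ± 3.11 against 0.209 ± 0.0325 CPM, while polyol transporter 5 (Sobic.001G469600) was 13.3-fold lower (SD, n = 3). Sucrose synthase 2 (Sobic.001G344500), which cleaves sucrose, was 4.1-fold lower from 4080 CPM. Outside the list, a sucrose-phosphate synthase 5 gene (Sobic.005G089600) was 83-fold lower. Galactinol synthase 2 (Sobic.002G423600), which starts raffinose synthesis, was 58.4-fold higher at 13.5, 11.8 and 13.8 CPM against 0.171, 0.313 and 0.185 CPM.

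Aquaporins, the water channels, had 14 higher, 3 lower and 17 not past the test of 34 tested, none of the lower ones by 2-fold. PIP1-5 (Sobic.004G351200), a plasma membrane channel, stood at 596 ± 108 against 79.7 ± 6.19 CPM (SD, n = 3), 7.48-fold higher with no overlap (edgeR adjusted p = 4.81e-07). The vacuolar channel TIP2-2 (Sobic.010G146100) was 4.98-fold higher, and PIP1-2 (Sobic.004G288700), the more abundant one, 1.7-fold higher at 1591 against 937 CPM. The count of higher aquaporins was 9 without phosphorus deficiency replicate 1. The count of lower ones was 7 without mock replicate 1 and 0 without phosphorus deficiency replicate 2 or 3 or mock replicate 2.

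Markers of some cell types differed between the groups, and their part in the other results was not tested. Photosynthesis genes, which mark green tissue, were low in both groups: of 79 members 40 had too few counts to test, 19 of them with 0 counts in all 6 libraries, among them the Rubisco small chain (Sobic.005G042000) and chlorophyll a-b binding protein 1B-21 (Sobic.004G056900). Of the 39 tested, 19 were higher, 1 lower and 19 not past the test, with a median of 1.02 and a summed level of 175 to 194 CPM against 86.8 to 105 CPM. Photosystem I reaction center subunit VI (Sobic.009G229700) was 7.72-fold higher at 5.42 ± 1.28 against 0.702 ± 0.263 CPM, and subunit III (Sobic.001G070500) 6.56-fold higher. The highest member was Rubisco activase (Sobic.004G118700), at 54.4 against 26.9 CPM. The lower count was 3 without phosphorus deficiency replicate 3 and 2 without mock replicate 3.

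Among root cell types, the lists taken as markers of root hairs and of xylem had more lower than higher members. Sorgoleone, a quinone that sorghum root hairs secrete, is made by enzymes of which 14 were tested, with 8 lower, 0 higher and 6 not past the test, and a summed level of 511 to 550 CPM against 998 to 1443 CPM. Without phosphorus deficiency replicate 2, the counts were 5 lower and 1 higher, and without mock replicate 1 the higher count was also 1. Secondary wall and lignin genes, taken as markers of xylem, were lower in 39 of 73 tested, higher in 8 and not past the test in 26. Their median was -0.75 and their summed level 10854 to 13536 CPM against 25704 to 27580 CPM. The list also holds general enzymes such as phenylalanine ammonia-lyase, so it does not mark xylem alone. One phenylalanine ammonia-lyase gene (Sobic.004G220300) made up much of both sums, at 8776 against 15897 CPM.

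The cellulose synthases of the secondary wall moved together. Subunit 4 (Sobic.003G296400) stood at 64.4 ± 5.62 against 416 ± 55.9 CPM (SD, n = 3), subunit 9 (Sobic.002G205500) at 61.6, 46.8 and 42.9 CPM against 495, 662 and 497 CPM, and subunit 7 (Sobic.001G224300) at 55, 48.1 and 38.5 CPM against 325, 475 and 332 CPM. These were 6.46-fold, 10.9-fold and 8-fold lower, with no overlap in any. NAC73 (Sobic.009G231600), of the family of secondary wall regulators, was 13.9-fold lower. In lignin synthesis, a phenylalanine ammonia-lyase (Sobic.006G148800), the entry step, was 5.34-fold lower from 1454 CPM, 4-coumarate--CoA ligase 3 (Sobic.004G062500) 4.64-fold lower and laccase-10 (Sobic.001G422300), which couples lignin units, 155-fold lower at 0.384 against 59.5 CPM. The log2 fold change of the laccase went from -7.31 to -8.41 without phosphorus deficiency replicate 1.

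Most markers of endodermis, dividing cells and wall loosening did not pass the test. Over all tested genes, 17.4% were higher and 18.2% lower. The endodermis list did not exceed either share, and the list of dividing cells lay far below both. Wall loosening had a smaller share higher and a somewhat larger share lower than all genes. Of 23 Casparian strip and suberin genes tested, 4 were higher, 3 lower and 16 not past the test, and none of the 4 Casparian strip membrane proteins passed, with edgeR adjusted p from 0.0623 to 0.58. The lower count was 5 without phosphorus deficiency replicate 1 and 7 without mock replicate 1. Of the 4 higher members, 3 are described as MYB36, a regulator of the Casparian strip in Arabidopsis, although a second deposited description calls 2 of these RAX1 and RAX2. The first (Sobic.004G322800) stood at 77.8 ± 11.7 against 18.4 ± 0.928 CPM (SD, n = 3) and was 4.23-fold higher, and the others were 3.53-fold (Sobic.003G034500) and 3.29-fold higher (Sobic.009G224500).

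Of 82 histone and cell cycle genes, 76 did not pass the test, 5 were lower and 1 was higher, none by 2-fold. The higher count was 0 or 2 when some libraries were left out, and the lower count ranged from 0 without phosphorus deficiency replicate 1 or mock replicate 2 to 29 without mock replicate 1. The member with the smallest adjusted p, Cyclin-D2-1 (Sobic.002G190700), stood at 15.2 ± 2.25 against 24.3 ± 6.49 CPM with an edgeR adjusted p of 0.0161, and lost its call without 3 of the libraries. Expansins and other wall-loosening genes had 19 lower, 9 higher and 59 not past the test of 87, and 29 lower without mock replicate 1. Expansin-like A1 (Sobic.001G516500) was 2.59-fold higher.

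Secondary metabolism was lower in several branches. Sulfotransferases had 10 lower, 0 higher and 5 not past the test of 15 tested, with 1 higher without mock replicate 3. Cytosolic sulfotransferase 5 (Sobic.005G213600) held 0 counts in the 3 libraries labelled phosphorus deficiency and 29.6, 29.8 and 41.6 CPM in those labelled mock, at least 383-fold lower against a floor of 3 counts per library. Flavonoid and anthocyanin synthesis had 17 lower, 7 higher and 21 not past the test of 45, with flavonoid 3',5'-hydroxylase 1 (Sobic.001G360800) 12.2-fold lower at 14.2, 11.4 and 14 CPM against 138, 172 and 174 CPM. Chalcone synthase 6 (Sobic.005G137300) and chalcone--flavonone isomerase (Sobic.001G035600), the first steps of the pathway, were 7.33-fold and 5.43-fold lower. The higher count for this pathway was 12 without phosphorus deficiency replicate 1.

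Conjugating enzymes differed by family. UDP-glycosyltransferases had 44 lower, 23 higher and 43 not past the test of 110, yet the member with the smallest adjusted p, UDP-glycosyltransferase 83A1 (Sobic.001G084700), was 13.8-fold higher at 130, 138 and 130 CPM against 9.97, 10.8 and 8 CPM. Glutathione S-transferases had 19 higher, 10 lower and 38 not past the test of 67, and GSTF1 (Sobic.004G171400) was 6.69-fold lower. Class III peroxidases had 35 lower, 19 higher and 70 not past the test of 124. Genes described as peroxidase 1 went both ways, with Sobic.003G152100 4.95-fold lower at 5.05 against 25 CPM and Sobic.002G003500 129-fold higher at 41.4 against 0.322 CPM.

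Hormone pathways showed modest list medians with strong single genes. Cytokinin genes had 15 higher, 6 lower and 17 not past the test of 38, with the response regulator ORR4 (Sobic.003G428300), a primary cytokinin response gene, 2.46-fold higher. The lower count was 3 without phosphorus deficiency replicate 3. Auxin genes had 14 higher, 29 lower and 70 not past the test of 113. Efflux carrier PIN9 (Sobic.003G327500) was 19.8-fold lower at 4.64 ± 0.916 against 91.9 ± 29.8 CPM (SD, n = 3), IAA7 (Sobic.004G099600), a repressor of auxin response, 9.82-fold higher and YUCCA1 (Sobic.003G236900), an auxin synthesis enzyme, 6.05-fold higher. Jasmonate genes had 11 higher, 15 lower and 18 not past the test of 44. The member with the smallest adjusted p, putative 12-oxophytodienoate reductase 13 (Sobic.006G091900), was 4.59-fold lower. It stood at 14 against 64.4 CPM (edgeR adjusted p = 5.55e-08). Linoleate 9S-lipoxygenase 2 (Sobic.003G385500), which acts on the 9-position branch of oxylipins, stood at 361, 354 and 319 CPM against 8.92, 12.4 and 16.4 CPM, 27.5-fold higher (edgeR adjusted p = 1.3e-07).

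The ethylene list was even, and the gibberellin and abscisic acid lists were uneven by a few genes. The ethylene shares, 20% higher and 20% lower, lay near those of all tested genes, 17.4% and 18.2%. Ethylene genes had 7 higher, 7 lower and 21 not past the test of 35, and 1-aminocyclopropane-1-carboxylate oxidase 1 (Sobic.002G221900), the last step of ethylene synthesis, was 16.4-fold higher, with a log2 fold change of 4 that became 4.85 without mock replicate 1. Gibberellin genes had 5 higher, 8 lower and 10 not past the test of 23, or 3 higher and 5 lower without phosphorus deficiency replicate 3, and the lower count was also 5 without mock replicate 2. The synthesis enzyme ent-copalyl diphosphate synthase AN1 (Sobic.001G248600) was 10.7-fold lower and the receptor GID1 (Sobic.009G134600) 2.06-fold higher. Abscisic acid genes had 5 higher, 3 lower and 10 not past the test of 18, with 2 or 3 higher when phosphorus deficiency replicate 2 or 3 or mock replicate 3 was left out. NCED3 (Sobic.002G168800), the rate-limiting step of abscisic acid synthesis, was 5.34-fold lower at 29.2, 16.9 and 19.4 CPM against 123, 101 and 126 CPM.

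Transcription factor families were split. MYB factors had 33 lower, 17 higher and 45 not past the test of 95, NAC factors 21, 14 and 34 of 69, and bHLH factors 20, 13 and 47 of 80. WRKY factors had 12 lower, 19 higher and 46 not past the test of 77, and AP2/ERF factors 18, 17 and 66 of 101. The AP2/ERF shares lay near those of all tested genes, 18.2% lower and 17.4% higher. Those of bHLH factors were 25% and 16.2%, and those of the calcium sensors below 20% and 8.57%. Among NAC factors, NAC79 (Sobic.002G199200) held 0 counts in the libraries labelled phosphorus deficiency against 18.7 ± 3.29 CPM (SD, n = 3), at least 213-fold lower. NAC83 (Sobic.002G259600) was 4.86-fold lower and NAC48 (Sobic.009G142200) 16.2-fold higher. Among AP2/ERF factors, ERF034 (Sobic.006G169900) was 8.74-fold lower and ERF053 (Sobic.004G227400) 11.5-fold higher. For ERF053, the log2 fold change of 3.52 became 4.25 without mock replicate 1. Among signalling genes, phytosulfokines 2 (Sobic.005G035300), a growth peptide precursor, was 3.43-fold lower and the calcium sensor CML10 (Sobic.003G425500) 3.61-fold lower, in lists with 4 lower and 2 higher of 14 and 7 lower and 3 higher of 35. The peptide count was 2 lower without phosphorus deficiency replicate 3 or mock replicate 2, and the calcium sensor count was 1 higher without phosphorus deficiency replicate 2 or 3 or mock replicate 1 or 2.

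Ribosomal proteins described as 40S or 60S served as a view of the general level, and 4 of them are described as mitochondrial, 1 of these called higher. Of 196 tested, 188 did not pass the test, 4 were higher and 4 lower, with a median of 0.05, and each count fell to 1 or 2 when some libraries were left out. Heat shock proteins had 18 lower, 8 higher and 37 not past the test of 63, with the stress factor A-4d (Sobic.009G208000) 4.08-fold lower.

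**Figure D4:**
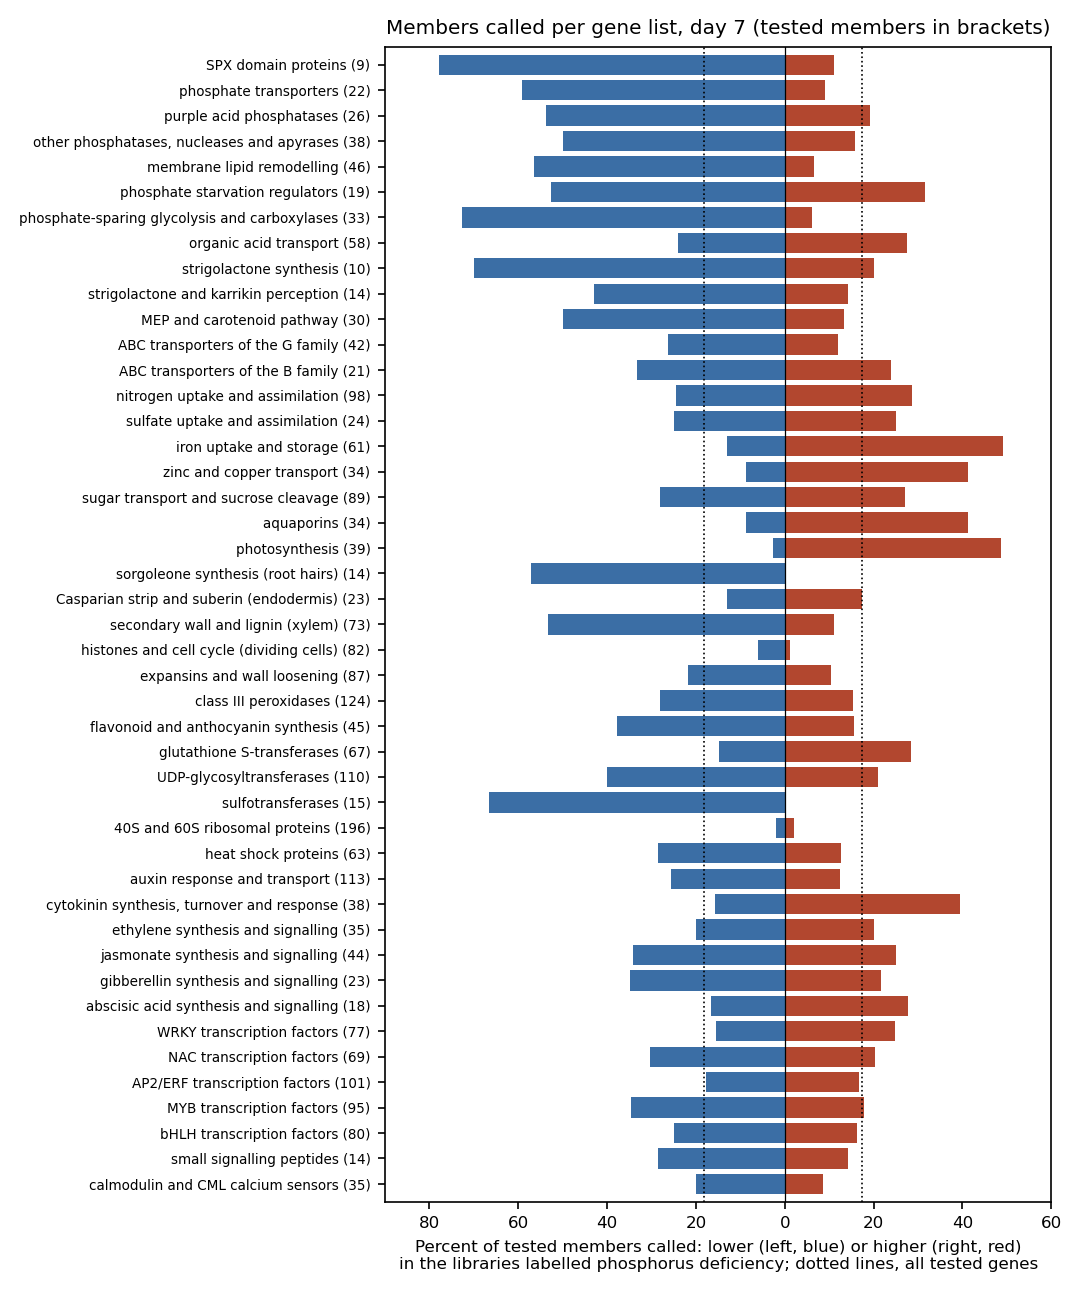
Share of the tested members of each of 45 gene lists called lower (left, blue) or higher (right, red) in the libraries labelled phosphorus deficiency, in percent, with the number tested in brackets and dotted lines at the shares over all genes, 18.2% and 17.4%. SPX proteins, phosphate-sparing glycolysis and strigolactone synthesis reach farthest to the left, at 77.8%, 72.7% and 70%, and iron and photosynthesis farthest to the right, at 49.2% and 48.7%.

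Several of the largest changes lay outside the pathways above. On the higher side, a WAT1-related protein (Sobic.001G261408), of a family of vacuolar and plasma membrane transporters, stood at 22.2, 24.5 and 29.1 CPM against 0.147, 0.223 and 0.339 CPM, 107-fold higher. Phospholipase A1-II 7 (Sobic.009G014600) was 62.7-fold higher, with a log2 fold change of 5.89 that became 8.30 without mock replicate 1. Cytochrome P450 89A9 (Sobic.003G076800), which in Arabidopsis acts in chlorophyll breakdown, was 34.7-fold higher and the amino acid transporter ANT1 (Sobic.001G038500) 30.8-fold higher. Their log2 fold changes, 5.07 and 4.93, became 5.95 and 5.68 without mock replicate 1. The vacuolar amino acid transporter AVT6A (Sobic.010G199200) was 7.21-fold higher at 959 ± 102 against 133 ± 36 CPM (SD, n = 3).

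On the lower side, genes with 0 counts in all 3 libraries labelled phosphorus deficiency included non-specific lipid-transfer protein 1 (Sobic.008G030900), at least 151-fold lower, benzyl alcohol O-benzoyltransferase (Sobic.002G063800), at least 84.7-fold lower, and cytochrome P450 87A3 (Sobic.001G430600), at least 77.3-fold lower. In all, 18 genes had 0 counts in that group and at least 5 CPM in the other, and 2 genes the reverse. Hydrophobic protein OSR8 (Sobic.010G211400), a small membrane protein induced by stress in rice, was 351-fold lower, from 424 ± 62.5 to 1.21 ± 0.694 CPM (SD, n = 3). Triacylglycerol lipase OBL1 (Sobic.002G409500) was 55.2-fold lower at 10.6, 8.55 and 7.36 CPM against 511, 463 and 487 CPM.

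Compared per length on the authors' FPKM scale, several of the most abundant transcripts differed. Others among them did not pass the test, such as an S-adenosylmethionine synthase 1 gene (Sobic.009G033600) at 2422 against 1968 FPKM and glycine-rich RNA-binding protein 1 (Sobic.008G185900) at 2328 against 2836 FPKM, with edgeR adjusted p of 0.279 and 0.258. Abscisic stress-ripening protein 5 (Sobic.006G078500), a small protein of water deficit responses, was at 303 against 5448 FPKM, and its namesake Sobic.008G049200 at 218 against 2163 FPKM. Phenylalanine ammonia-lyase (Sobic.004G220300) was at 3075 against 5352 FPKM. In the other direction, the pair of 2'-deoxymugineic-acid 2'-dioxygenase genes, which hydroxylate mugineic acids in barley, were at 2230 against 756 FPKM (Sobic.008G109400) and 1353 against 454 FPKM (Sobic.008G109300). Metallothionein-like protein 1 (Sobic.005G228700) led the libraries labelled phosphorus deficiency at 7379 against 4256 FPKM, but its call, with an edgeR adjusted p of 0.021, was lost without any one of 4 libraries.

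The day 7 response was tested against the day 4 response, as an interaction across the 12 libraries. A total of 117 genes (0.465%) differed between the days, 8 of them in the iron list. BRUTUS (Sobic.009G222200) was at 35.5 CPM in the libraries labelled phosphorus deficiency and 43.2 CPM in mock at day 4, against 283 and 37.2 CPM at day 7. Oligopeptide transporter 3 (Sobic.001G087700), an iron and copper carrier of the phloem in Arabidopsis, was at 75.4 and 110 CPM at day 4 and 701 and 149 CPM at day 7. A Fe(2+) transport protein 2 gene (Sobic.001G156800) was at 10.1 and 14.4 CPM at day 4 and 132 and 20.5 CPM at day 7. In these 3 genes the day 7 libraries labelled phosphorus deficiency lay above all other libraries of both days. Of the 103 members of the 4 phosphate lists 0 passed the edgeR interaction test after adjustment. At the share of 0.465% over all genes, a count of 0 does not set these lists apart. In DESeq2 4 members passed, where 430 genes did in all. In edgeR 17 members had an unadjusted p under 0.05. The same share over all genes was not taken, so the 17 cannot be called many or few.

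**Figure D5:**
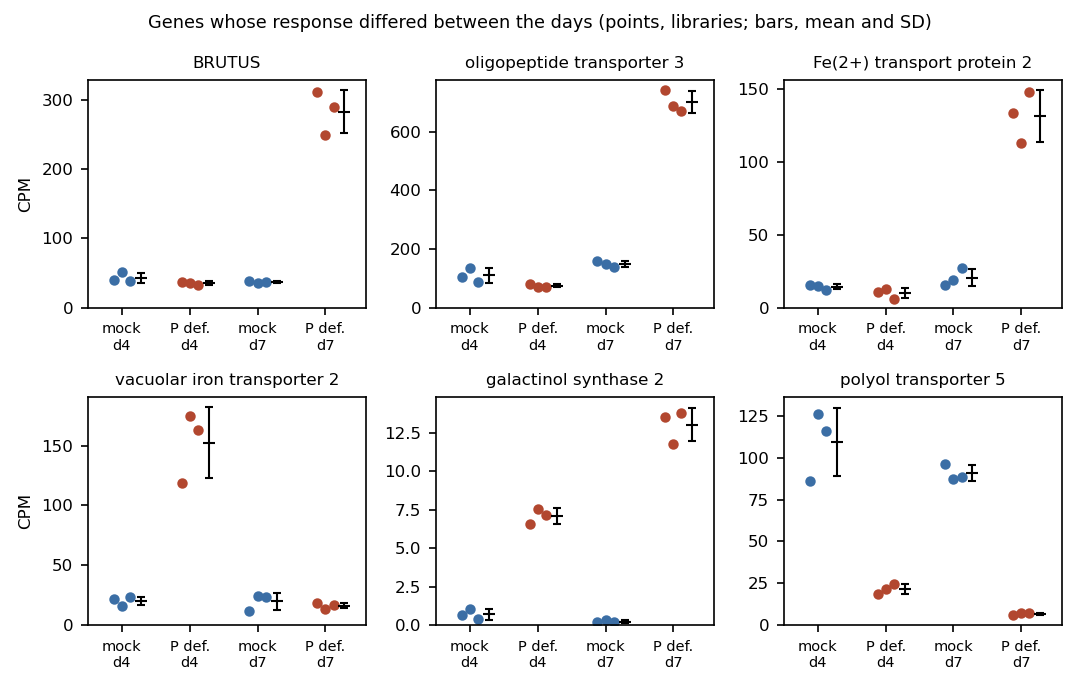
Levels in CPM of 6 genes whose response differed between the days, by library (points, blue for mock and red for libraries labelled phosphorus deficiency) with mean and SD (black), at day 4 and day 7. For BRUTUS, oligopeptide transporter 3 and Fe(2+) transport protein 2 the day 7 libraries labelled phosphorus deficiency stand highest, at means of 283, 701 and 132 CPM, and for vacuolar iron transporter 2 those of day 4, at 152 CPM.

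Galactinol synthase 2 (Sobic.002G423600) and polyol transporter 5 (Sobic.001G469600) lay on the same side at both days with a larger gap at day 7. On day 4 the former had 7.1 against 0.696 CPM, and on day 7 it had 13 against 0.223 CPM. The latter had 21.5 against 109 CPM, then 6.86 against 90.9 CPM. A 3-ketoacyl-CoA synthase 11 gene (Sobic.009G241000), which elongates fatty acids for wax and suberin, had 17.5 against 30.3 CPM on day 4, then 8.94 against 50.5 CPM. Among the genes whose response was more negative at day 7, an F-box protein (Sobic.009G223500) and NYC1 (Sobic.003G010600), a chlorophyll b reductase, changed sides. The first had 112 against 68.1 CPM on day 4, then 25.5 against 46.9 CPM, and the second 28.9 against 19.8 CPM, then 5.47 against 13.8 CPM. The day 4 values are given without a test of their own.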

How the data were processed

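Per the labels' protocols, the RNAprep Pure Plant Kit served for root RNA, of which 1 µg went into each Hieff NGS Ultima Dual-mode mRNA library. The authors' tools included HISAT2, featureCounts, fastp and DESeq2 1.22.1, per the submitters' processing notes. The sources used here give neither strandedness nor genome build, so no positions are printed, overlapping or antisense genes cannot be told apart, and no sequences are shown. The deposited values are raw counts per gene and library, and the authors' FPKM, scaled for gene length and library, per the file headers. The authors' FPKM were used only to set genes side by side. Gene names are the deposited descriptions, made by similarity to known proteins.

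The 12 libraries of days 4 and 7 were fitted together, 1 mean per group, with edgeR 4.0.16 in R 4.3.3 (TMM, filterByExpr, robust quasi-likelihood test, Benjamini-Hochberg adjustment over 25137 of 35907 genes, threshold 0.05). The fit was first tested on simulated counts with known changes. That setting, with few genes changed and the same spread for every gene, was simpler than these data. Fold is the ratio of mean CPM, and log2 fold changes are fitted. With 0 counts in a group, the fold is a bound, taken against 3 counts in each library, and with 1 to 3 counts it has a 95% interval. Both cover only counting error.

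Members of the 45 lists were found by words in the descriptions. Lists and members were chosen with earlier results of these data known. After the files were read, proteins that only shared a word with a list (such as assembly factors, histone-modifying enzymes and other methyltransferases) were taken out by description. No set test was run. The rule for named genes takes 10 genes with a description per direction with the largest change, no overlap and at least 5 CPM, the 3 members with the smallest adjusted p of each phosphate list and of strigolactone synthesis, the first member of every other list, and 4 genes per direction of the interaction. Other genes were named after seeing their values. Tried as alternatives were RLE or total-count scaling, DESeq2 1.42.0, no filter or 30 reads in 3 libraries, a 2-fold threshold, the 6 day 7 libraries alone, a replicate block and leaving out each library.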

Additional observations from a re-analysis of the deposited data

Results flagged for a closer look

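A total of 11 named genes had a response that differed between day 7 and day 4 in the edgeR interaction test, with the adjusted p given for each. Those whose response was more positive at day 7 were BRUTUS (Sobic.009G222200, 5.96e-06), oligopeptide transporter 3 (Sobic.001G087700, 7.28e-05), Ipomoelin (Sobic.005G182500, 0.000519), Fe(2+) transport protein 2 (Sobic.001G156800, 0.00187), peroxidase 1 (Sobic.002G003500, 0.00582) and galactinol synthase 2 (Sobic.002G423600, 0.0349). Ipomoelin, a wound-response lectin in sweet potato, changed sides, from 13.3 against 36.5 CPM at day 4 to 60.8 against 28.4 CPM at day 7. Peroxidase 1 was at 13.9 against 3.12 CPM and then at 41.4 against 0.322 CPM. Those whose response was more negative at day 7 were the F-box protein (Sobic.009G223500, 0.00144), 3-ketoacyl-CoA synthase 11 (Sobic.009G241000, 0.00187), vacuolar iron transporter 2 (Sobic.002G194600, 0.00187), NYC1 (Sobic.003G010600, 0.00285) and polyol transporter 5 (Sobic.001G469600, 0.0117). Vacuolar iron transporter 2 was at 152 against 20.2 CPM at day 4 and at 16.3 against 20 CPM at day 7.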

How the results depend on the processing

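The counts of 4386 higher and 4572 lower genes stayed within 1.5 times under the scaling, filter, DESeq2, block and 6-library alternatives, and with a library left out (3398 to 5008 higher, 3773 to 5144 lower), but were 1724 and 2768 at 2-fold by construction. The interaction count of 117 was 430 with DESeq2 and 71 with a replicate block, and with 1 library out it lay between 58 (mock day 7 replicate 2 left out) and 180 (mock day 7 replicate 1 left out). The cause was not tested. The labels do not say whether replicate numbers pair the samples. Deviations from the group mean correlated at -0.153, -0.0922 and -0.0651 between same-numbered day 7 libraries. These values cannot decide it, because differently numbered libraries were not compared. Of 86 named genes none changed direction. Cyclin-D2-1 (Sobic.002G190700) lost its call without phosphorus deficiency replicate 1 or 2 or mock replicate 2 (adjusted p 0.0591, 0.0648 and 0.109), and vacuolar iron transporter 2 (Sobic.002G194600) gained one without mock replicate 1 (0.0318). Of the 90 list counts, 78 to 89 stayed within 1.5 times under each alternative. Depth limits genes below 0.0878 CPM in the libraries labelled phosphorus deficiency and 0.0776 CPM in mock, the mean of 3 counts per library.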

Other observations

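Enzymes of the methionine cycle, which recovers methionine from the by-product of nicotianamine and ethylene synthesis, were put together after their values were seen and are described without a test. Of 12 tested methionine salvage and S-adenosylmethionine synthesis genes, 7 were higher, 2 lower and 3 not past the test, with a median log2 fold change of 0.79. The shares of all tested genes were 17.4% higher and 18.2% lower. 5'-Methylthioadenosine nucleosidase (Sobic.007G193200) stood at 554, 435 and 545 CPM in the libraries labelled phosphorus deficiency and at 72.5, 73.2 and 93.8 CPM in those labelled mock, 6.4-fold higher. The next steps, methylthioribose kinase 1 (Sobic.006G259700) and methylthioribose-1-phosphate isomerase (Sobic.005G100800), were 5.46-fold and 6.12-fold higher, and a dioxygenase of the cycle (Sobic.001G243100) was 2.37-fold higher. The 2 lower members were another dioxygenase (Sobic.001G496300), at 11.3 against 16.6 CPM, and a dehydratase/enolase-phosphatase E1 (Sobic.003G108800), at 8.09 against 11.2 CPM. Another methylthioribose kinase 1 gene (Sobic.006G259600) did not pass the test, at 3.38 against 5.91 CPM. Formate dehydrogenase 2 (Sobic.004G265000), which oxidises the formate released by the cycle, was 5.83-fold higher at 1284 ± 157 against 220 ± 54.9 CPM (SD, n = 3).

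Photoreceptor genes were also grouped after their values were seen. Of 10 tested photoreceptor genes 7 were higher, 1 lower and 2 not past the test, with a median of 0.60. Of all tested genes, 17.4% were higher and 18.2% lower. Some of the 7 differed little, such as phytochrome B (Sobic.001G394400), 1.56-fold higher. Cryptochrome DASH (Sobic.010G218200) had a low level, at 0.737 against 0.301 CPM. Phytochrome a (Sobic.001G111500) stood at 2243, 2644 and 3023 CPM against 539, 259 and 195 CPM, 7.96-fold higher, with mock replicate 1 the highest of its group. Phototropin-1A (Sobic.008G001000) was 15.5-fold higher, with a log2 fold change of 3.95 that became 4.62 without mock replicate 1, whereas phototropin-2 (Sobic.007G105500) was 4.04-fold lower. Neither cryptochrome-1 gene passed the test (edgeR adjusted p 0.319 and 0.145). Outside this group, chlorophyllide a oxygenase (Sobic.003G435800), which makes chlorophyll b, was 17.5-fold higher and a light-regulated chloroplast protein (Sobic.003G107300) 12.5-fold higher. The summed level of photosynthesis genes was higher in the same libraries. The labels do not give the light that the roots of each group received, and a link with light was not tested.

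Genes without a description made up 9337 of those tested, with 1429 higher and 1326 lower. Genes predicted by the authors numbered 953 of those tested, with 164 higher and 87 lower. For comparison, 17.4% of all tested genes were higher and 18.2% lower.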
